A study of Drosophila melanogaster with 6 samples.

Results

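The genes of cyclic nucleotide breakdown and of the core cAMP cascade were followed in the Malpighian tubules, the renal organs of Drosophila melanogaster. The set was chosen by FlyBase symbol: the phosphodiesterase genes Pde8, Pde11, dnc, Pde6, Pde9 and Pde1c, the adenylyl cyclase gene rut, and the protein kinase A genes Pka-C1, Pka-R1 and Pka-R2. All 10 were found among the 17611 genes of the deposited count table, and all 10 passed the filter on low counts. Tubules came from flies with a gut tumour, which carried heterozygous esg-GAL4, UAS-GFP, tub-GAL80TS and UAS-yki3SA, and from control flies, which carried the same driver, reporter and temperature-sensitive repressor without UAS-yki3SA. The transgene yki3SA is an active form of Yorkie, the growth-promoting effector of the Hippo pathway, and the esg driver acts in progenitor cells of the gut and also in the stem cells of the tubule, so an effect of the gut tumour and one of yki3SA in tubule cells cannot be told apart. Virgin flies of both groups spent 6 to 8 days at 18 °C, followed by 8 days at 29 °C to switch the driver on. A pool of 80 tubules per genotype was lysed, and 3 poly-A RNA libraries per group were sequenced. Nothing in the labels says that libraries of 1 genotype stem from separate flies or cultures, and p-values therefore describe the spread among these libraries only, part or all of which may be technical.

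Cyclic AMP is made by adenylyl cyclases when hormone receptors act through the stimulatory G protein, and it releases the catalytic subunits of protein kinase A from the regulatory subunits that hold them inactive. Phosphodiesterases end the signal by hydrolysing cAMP, cGMP or both. In the tubule, diuretic hormones such as DH44 and DH31 raise cAMP in principal cells, which stimulates the proton pump and fluid secretion, and cGMP acts as a parallel messenger.

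The libraries held between 34640437 and 49338340 counts, and the counts of the 10 genes in single libraries lay between 239 and 15490. Levels are given as CPM (the counts of a gene relative to those of its library) scaled by TMM, which sets libraries level on the bulk of their genes, as mean ± SD with n = 3 per group. Genes were tested with edgeR's quasi-likelihood test, with Benjamini-Hochberg adjustment over the 9789 genes that passed the filter. The tissue label was checked against marker genes. Of 8 principal cell markers, led by Vha55 and NaPi-T, 0 rose and 5 fell, and their summed level was 6625 to 7923 CPM in tumour and 12321 to 15724 CPM in control libraries. Stellate cell markers, led by ClC-a and SecCl, summed to 1009 to 1158 CPM in tumour and 1317 to 1482 CPM in control libraries. Of 7, 2 fell, and 0 without any 1 of the tumour libraries or with library totals alone (1 without control library 1 or control library 3). In bulk tissue, fewer cells of a type and less RNA per cell cannot be told apart. Of 11 tested midgut enterocyte markers 8 fell. Mur18B, the most abundant of those 8, was at 19001 to 25280 CPM in tumour and 51394 to 60329 CPM in control libraries. It made up at least 98.6% of the list in every library. The level of Mur18B was far above that of Vha55 (2405 to 2755 CPM in tumour and 2726 to 3299 CPM in control libraries). Whether Mur18B marks midgut cells in these tubules was not tested. The other 11 listed markers, led by alphaTry, summed to 15 to 102.2 CPM in tumour and 291 to 824 CPM in control libraries. Of 6 fat body genes (led by Yp3 and Yp2) 5 fell. Of 7 germline and eggshell genes (led by Vm26Aa and Cp38) 4 fell, but 0 without control library 1 or control library 2, 1 without tumour library 2 or tumour library 3, 0 with no filter and 1 in limma-voom. Of 4 progenitor genes 2 rose, spi and Sox100B. The gene polo did not pass (edgeR adjusted p = 0.713), nor did esg, the gene of the driver (log2 fold change -0.62, edgeR adjusted p = 0.339). Without tumour library 2 or tumour library 3, 2 of the 4 rose and 1 fell. The levels of esg were 2.26, 6.78 and 2.21 CPM in tumour and 6.10, 5.52 and 5.71 CPM in control libraries 1 to 3. Of 4 tracheal genes (led by Gasp and trh) 1 fell (0 without tumour library 2 or control library 3 and with library totals alone, 2 without control library 1). Enteroendocrine genes (led by CCHa2 and CCHa1) gave 1 rise and 1 fall among 5 (0 rises without tumour library 2 or control library 3, and 2 falls without tumour library 2). By edgeR 0 of 3 haemocyte genes (led by Hml and Pxn) passed, with 1 lower at an unadjusted p under 0.05, 1 lower by DESeq2 and 0 by limma-voom. Tumour library 3 stood apart from the other tumour libraries on the second principal component of log2 CPM (-46.5, against 21.9 and 29.6; 14.3% of the variance). It was also the highest of the 6 libraries for polo, at 38.2 CPM against 5.11 and 4.33 CPM in tumour libraries 1 and 2. The same held for the germline gene osk, at 5.22 CPM against 0.626 and 0.181 CPM. Both were picked for this comparison after their values were seen. None of the marker genes found was at 0 in every library. The part of these differences in the results on the 10 genes was not tested.

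By edgeR with TMM scaling, transcripts of 2 phosphodiesterases, Pde9 and dnc, fell in tumour tubules, each to about 0.65 of the control level. The other 8 genes did not pass the test. Among all genes tested, 13.0% fell, 14.8% rose and 27.8% passed in either direction, so 2 falls and 0 rises among 10 genes are close to the background. At an unadjusted p under 0.05, 3 of the 10 were lower and 0 higher in the edgeR test; DESeq2 called 3 lower and 0 higher, and limma-voom 2 lower and 0 higher. With library totals alone 0 of the 10 fell and 3 rose, and 0 fell without control library 1 or against a fold of 1.5. Of the 6 fits without 1 library, the call of Pde9 held in 4 and that of dnc in 2. On the log2 scale the median fold change was -0.08 for the 10 genes and 0.08 for all genes tested.

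**Figure D1:**
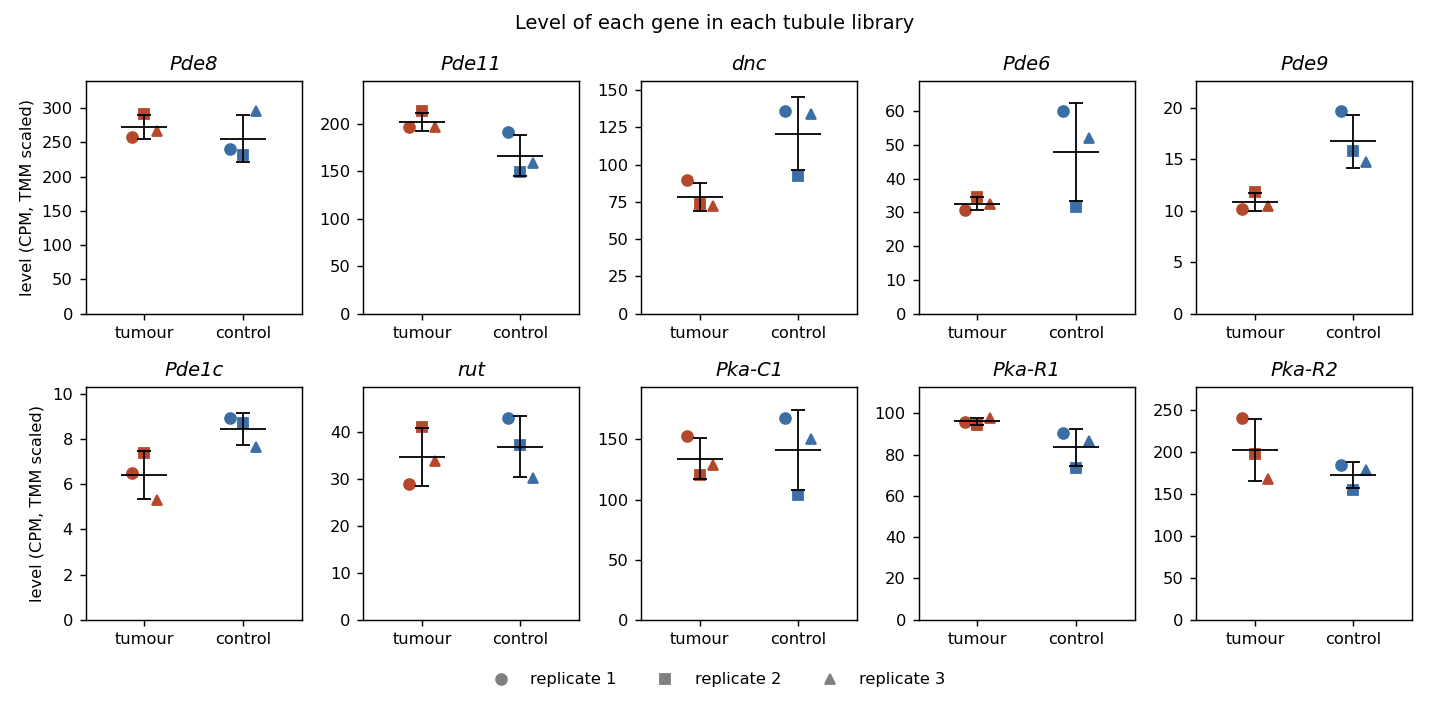
Level of each of the 10 genes in every library, in TMM-scaled CPM on a linear axis that starts at 0, with tumour libraries left of control libraries. Points are libraries, horizontal bars the mean and whiskers the SD (n = 3 per group). For dnc, Pde9 and Pde1c every tumour library lay below every control library, and for Pde11 and Pka-R1 every tumour library lay above.

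Pde9 was the member with the smallest adjusted p. The gene (FBgn0259171, chromosome X, 12785563 to 12897327, minus strand, in the Ensembl BDGP6 annotation) encodes a phosphodiesterase whose mammalian counterpart is specific for cGMP. Its transcript was at 10.2, 11.8 and 10.5 CPM in tumour libraries 1 to 3, against 19.7, 15.8 and 14.7 CPM in control libraries 1 to 3. The groups did not overlap, and the tumour libraries lay close together while control library 1 stood above the other two. The means were 10.8 ± 0.864 CPM in tumour and 16.7 ± 2.59 CPM in control tubules. The log2 fold change was -0.63 ± 0.16 (SE; edgeR adjusted p = 0.0235), a fold of 0.647 with a 95% interval from 0.50 to 0.837. The call was lost without tumour library 1 (adjusted p = 0.0535) or control library 1 (0.0833), and the adjusted p lay between 0.0030 and 0.662 over all 14 alternatives. The value of 0.662 came from the edgeR test against a fold of 1.5, which asks a stricter question. The highest of the others was 0.139, in edgeR with library totals alone. Without tumour library 3 the adjusted p was 0.047.

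The gene dnc (dunce; FBgn0000479, chromosome X, 3176440 to 3343767, plus strand) encodes the cAMP-specific phosphodiesterase known from learning mutants, with 17 annotated transcripts. It was at 89.4, 73.7 and 72.1 CPM in tumour libraries 1 to 3 and at 135.6, 92.4 and 134.1 CPM in control libraries 1 to 3. The highest tumour library lay just under the lowest control library, and control libraries 1 and 3 were well above both. The means were 78.4 ± 9.56 CPM in tumour and 120.7 ± 24.6 CPM in control tubules, and the log2 fold change was -0.62 ± 0.17 (edgeR adjusted p = 0.0304), a fold of 0.649 with a 95% interval from 0.494 to 0.854. The call held in 2 of 6 leave-one-out fits. The adjusted p was 0.0927 without tumour library 2, 0.0833 without tumour library 3, 0.0941 without control library 1 and 0.107 without control library 3. Over all 14 alternatives it ran from 0.0031 to 0.686, the latter in the edgeR test against a fold of 1.5. The highest of the others was 0.111, in edgeR with library totals alone. Since dnc is also known from neurons, neuronal markers were set beside it. Their summed level over 10 genes was 20.6 to 25.8 CPM in tumour and 29.4 to 32.5 CPM in control libraries. By edgeR 0 of 7 tested passed, with 1 lower at an unadjusted p under 0.05. In edgeR 1 fell with RLE scaling, no filter, a minimum of 5 CPM, the replicate block or without tumour library 1. DESeq2 called 1 lower, as did limma-voom. The leading neuronal markers were nSyb and elav. The level of nSyb was 14.1 ± 0.672 CPM in tumour and 16.1 ± 2.18 CPM in control libraries. That of elav was 5.60 ± 2.15 CPM in tumour and 10.4 ± 1.54 CPM in control libraries (log2 fold change -0.90, edgeR adjusted p = 0.0508). Muscle markers, led by sls and Mhc, summed to 500.6 to 647 CPM in tumour and 585 to 674 CPM in control libraries. Without sls, the other 9 listed summed to 351 to 446 CPM in tumour and 477 to 505 CPM in control libraries. Of 9 tested, 1 fell by edgeR, and 4 were lower at an unadjusted p under 0.05. DESeq2 called 3 lower and limma-voom 2. In edgeR 4 fell without tumour library 1. The number was 0 with library totals alone or without tumour library 2, tumour library 3, control library 1 or control library 3. The part of these cells in the level of dnc was not tested.

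Pde6 (FBgn0038237, chromosome 3R, 14513901 to 14558304), a cGMP-specific phosphodiesterase in the fly, had the next smallest adjusted p but did not pass. It was at 30.8, 34.6 and 32.4 CPM in tumour libraries and at 59.9, 31.6 and 52.1 CPM in control libraries 1 to 3. Control library 2 lay among the tumour libraries, and the other control libraries lay above all of them. The log2 fold change was -0.55 ± 0.22 (edgeR adjusted p = 0.0964). Without control library 2 it was -0.78 and passed (adjusted p = 0.00532), and it also passed in DESeq2 (adjusted p = 0.0337). Across the 14 alternatives the adjusted p ran from 0.00532 to 0.879, the latter in the edgeR test against a fold of 1.5. The highest of the others was 0.348, in edgeR with library totals alone.

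The more abundant phosphodiesterases Pde8 and Pde11 and the scarce Pde1c did not pass the test. Pde8 (FBgn0266377, chromosome 2R, 23657567 to 23680844), whose mammalian counterparts are specific for cAMP, was at 257, 292 and 267 CPM in tumour and at 240.5, 231 and 295 CPM in control libraries. The groups overlapped, and the 95% interval of its fold ran from 0.861 to 1.32 (edgeR adjusted p = 0.652). Pde11 (FBgn0085370, chromosome 2L, 18532025 to 18590342), a dual-specificity enzyme in the fly, was at 197, 213 and 196 CPM in tumour and at 191, 149 and 159 CPM in control libraries. All tumour libraries lay above all control libraries, by little in the case of control library 1. The log2 fold change of Pde11 was 0.28 ± 0.13, which did not pass (edgeR adjusted p = 0.136; interval of the fold 0.992 to 1.49). Pde1c (FBgn0264815, chromosome 2L, 11814156 to 11928572), the calcium/calmodulin-dependent enzyme that hydrolyses both nucleotides, was the lowest of the 10, at 6.50, 7.39 and 5.29 CPM in tumour and 8.94, 8.71 and 7.65 CPM in control libraries. Its groups did not overlap, and its log2 fold change of -0.40 ± 0.20 did not pass (edgeR adjusted p = 0.181).

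The make-up of the phosphodiesterase transcripts was described from levels per length. With CPM divided by the length of all annotated exons of a gene, the summed level of the 6 genes was 66.8, 72.7 and 66.9 CPM per kb in tumour and 72.4, 58.6 and 72.7 CPM per kb in control libraries, and the groups overlapped. Pde11 made up 38.1% ± 0.118 of that sum in tumour and 31.9% ± 3.08 in control libraries, and dnc 6.85% ± 1.03 and 10.6% ± 0.99 in tumour and control libraries (SD, n = 3 each). The share of Pde9 was 1.24% ± 0.0384 in tumour and 1.95% ± 0.31 in control libraries. Pde8 held the largest share in all 6 libraries, 45.4% ± 0.985 in tumour and 43.4% ± 4.56 in control libraries, and Pde6 held 7.25% ± 0.181 and 10.6% ± 2.23 in tumour and control libraries. The shares of the groups overlapped for Pde8 and did not for Pde11, dnc, Pde6, Pde9 and Pde1c. No such share exists for all genes, of which 46.9% of those tested did not overlap in CPM. The CPM of Pde6 did overlap between the groups. Control library 2, its lowest control library, also had the lowest summed level (58.6 CPM per kb). With the length of the canonical transcript in place of all exons, Pde11 made up 30.3% ± 0.0964 and 25.2% ± 2.77 and dnc 7.96% ± 1.20 and 12.2% ± 1.24 in tumour and control libraries. These shares share their sum, so 1 cannot rise without another falling, and they were described without a test.

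**Figure D2:**
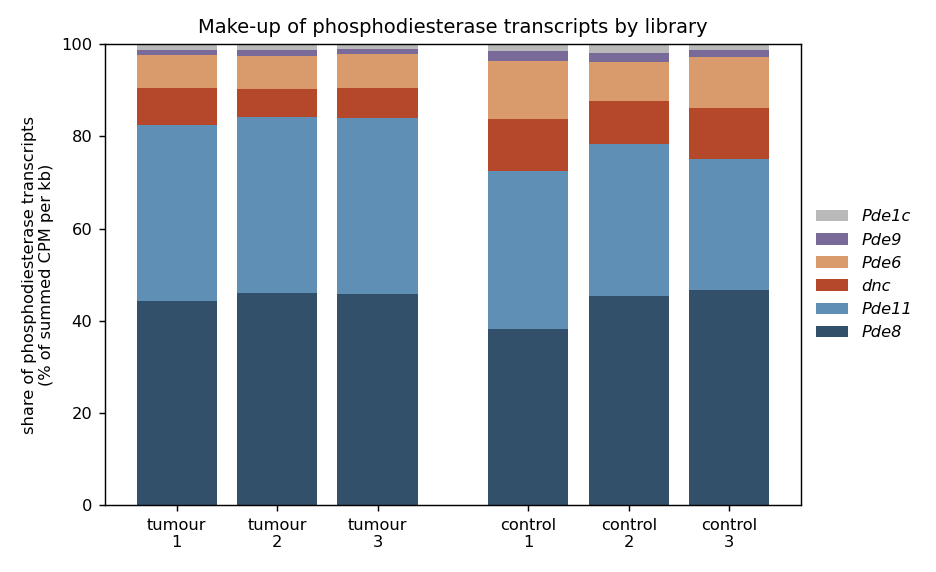
Share of each phosphodiesterase gene in the summed phosphodiesterase transcripts of each library, as percent of CPM per kb of annotated exon. Each bar is 1 library, tumour libraries on the left and control libraries on the right. Pde8 and Pde11 together fill most of every bar, and the band of dnc is narrower in the tumour libraries (6.85% ± 1.03) than in the control libraries (10.6% ± 0.99).

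Ratios of counts within a library do not depend on how libraries are scaled. The pairs were chosen after the values had been seen and were not tested. There were 0.347, 0.252 and 0.27 counts of dnc per count of Pde8 in tumour libraries and 0.564, 0.399 and 0.454 in control libraries. The ratio of dnc to Pde11 was 0.389 ± 0.0574 in tumour and 0.725 ± 0.113 in control libraries, and that of Pde9 to Pde8 was 0.0398 ± 0.00065 and 0.0667 ± 0.016 in tumour and control libraries. All 3 ratios were lower in every tumour library than in any control library. The ratio of Pde9 to Pde6 overlapped between the groups (0.332 ± 0.00906 in tumour and 0.37 ± 0.115 in control libraries).

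Neither the cyclase gene nor the kinase genes passed the test. The gene rut (rutabaga; FBgn0003301, chromosome X, 14787478 to 14826073) encodes a calcium/calmodulin-stimulated adenylyl cyclase, known like dnc from learning mutants. It was at 29.0, 41.2 and 33.9 CPM in tumour and 43.2, 37.4 and 30.2 CPM in control libraries, with overlapping groups and a 95% interval of the fold from 0.708 to 1.25 (edgeR adjusted p = 0.74). Pka-C1 (FBgn0000273, chromosome 2L, 9682315 to 9699297), the main catalytic subunit gene of protein kinase A, was at 152.7, 120.2 and 129 CPM in tumour and 168, 104 and 150.6 CPM in control libraries. Its groups also overlapped, with an interval of the fold from 0.704 to 1.28 (edgeR adjusted p = 0.804). Neither p shows that the levels were equal.

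Both regulatory subunit genes had means above control without passing the test. Pka-R1 (FBgn0259243, chromosome 3L, 20816118 to 20836048), the type I subunit, was at 96.0, 94.1 and 97.9 CPM in tumour and 90.4, 73.5 and 86.6 CPM in control libraries. Every tumour library lay above every control library, and the log2 fold change was 0.20 ± 0.11 (edgeR adjusted p = 0.22). Pka-R2 (FBgn0022382, chromosome 2R, 9993890 to 10026042), the type II subunit, was at 241, 198 and 168 CPM in tumour and 184, 155 and 179 CPM in control libraries, and the groups overlapped. Its log2 fold change was 0.23 ± 0.15 (edgeR adjusted p = 0.303), and 0.03 without tumour library 1. The counts of Pka-R1 and Pka-R2 together, divided by those of Pka-C1, were 2.20, 2.43 and 2.06 in tumour and 1.63, 2.19 and 1.76 in control libraries, so that control library 2 lay among the tumour libraries.

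Across the 10 genes, the groups did not overlap for 5, against 46.9% of all genes tested. In 3 of these the tumour libraries lay below (20.1% of all genes) and in 2 above (26.8% of all genes). With 10 genes, these shares are close to the background. Exons of 8 of the 10 genes overlapped no other annotated gene. Pde1c overlapped lncRNA:CR45013 over 332 bases and rut overlapped lncRNA:CR45522 over 420 bases, both on the opposite strand, and since it is not stated whether counting used strand, reads there cannot be assigned with certainty.

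The choice of scaling changed which of the 10 genes were called. With library totals alone, the median log2 fold change of all genes tested was 0.37 in place of 0.08, a shift of 0.29, and 31.5% of all genes rose and 8.48% fell. On that scale 3 of the 10 genes rose, namely Pde11 (log2 fold change 0.57, adjusted p = 0.00545), Pka-R1 (0.49, adjusted p = 0.0102) and Pka-R2 (0.51, adjusted p = 0.0144). None of the 10 fell by edgeR on it, with 0 lower at an unadjusted p under 0.05, and Pde9 (-0.34, adjusted p = 0.139) and dnc (-0.33, adjusted p = 0.111) did not pass. Relative to the median gene of the same fit, Pde9 lay at -0.71 on both scales and dnc at -0.70 with TMM and -0.71 with library totals alone, and Pde11 lay at 0.20 on both. Scaling shifts all genes by about the same amount, so this agreement is built in and is no check on the calls.

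**Figure D3:**
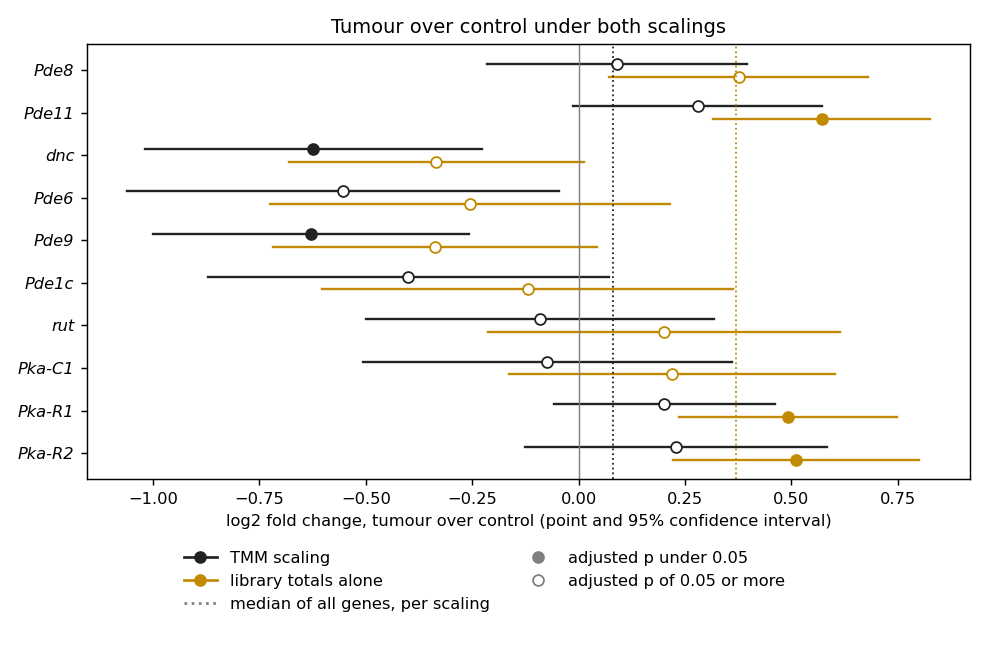
Log2 fold change of tumour over control for the 10 genes with TMM scaling (black) and with library totals alone (ochre). Points are the edgeR estimates, filled where the adjusted p was under 0.05, lines are 95% confidence intervals, and dotted lines mark the median of all genes under each scaling (0.08 and 0.37). All 10 points move to the right by about the same amount, which takes dnc and Pde9 out of the calls and brings in Pde11, Pka-R1 and Pka-R2.

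In order of level per kb of annotated exon, averaged over the 6 libraries, the genes ran Pka-R2 (38.6 CPM per kb), Pde8 (30.3), Pka-C1 (24.0), Pde11 (23.9), Pka-R1 (17.4), Pde6 (6.16), dnc (5.97), rut (3.72), Pde9 (1.09) and Pde1c (0.931). The ranges over libraries were separate between Pde11 and Pka-R1, between Pka-R1 and Pde6, and between rut and Pde9, and neighbours overlapped elsewhere in the order. With the length of the canonical transcript instead, Pka-R1 came first at 54.5 CPM per kb and dnc (10.4) stood above Pde6 (6.60). Lengths differ because the genes have between 3 (Pde6 and Pka-C1) and 18 (Pka-R1) annotated transcripts, and the counts do not tell which of them was present.

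The other genes of the pathway gave as many rises as falls. Of 63 genes in 5 lists, 44 passed the filter on low counts, and 5 rose and 5 fell, against 14.8% and 13.0% of all genes tested. Their median log2 fold change was -0.0032. With library totals alone 10 rose and 4 fell. The number that rose lay between 2 and 9 without 1 library, being 2 without control library 3, 3 without tumour library 1 and 9 without control library 2. The number that fell was 3 without control library 1 or control library 3.

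Adenylyl cyclases other than rut gave 2 falls and 0 rises among 6 tested by edgeR, against 13.0% and 14.8% of all genes tested. At an unadjusted p under 0.05 and by DESeq2 0 were higher, and by limma-voom 1. In edgeR 1 rose with library totals alone, with no filter or without tumour library 2, and 2 of 8 tested without control library 2. ACXD, a member of the ACX group of cyclases, was at 36.2, 28.7 and 23.7 CPM in tumour and 103.1, 88.4 and 88.0 CPM in control libraries. The groups lay far apart, with a log2 fold change of -1.66 ± 0.17 (edgeR adjusted p = 4.68e-04). Ac13E, a membrane cyclase and the most abundant of the list, was at 189, 241 and 205 CPM in tumour and 367, 299 and 343 CPM in control libraries, with exons that overlap Gmap. Its log2 fold change was -0.67 ± 0.14 (edgeR adjusted p = 0.0107). Both calls held without any 1 library and with library totals alone.

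Among 10 tested genes of kinase subunits, anchoring proteins and effectors, 2 rose and 1 fell, against 14.8% and 13.0% of all genes tested. With 10 genes, these counts are close to the background. Epac, which encodes a guanine nucleotide exchange factor for Rap that cAMP activates independently of protein kinase A, was at 89.1, 103.7 and 90.2 CPM in tumour and 39.8, 51.6 and 42.6 CPM in control libraries. All tumour libraries were far above all control libraries, and the log2 fold change was 1.08 ± 0.13 (edgeR adjusted p = 0.00107), a call that held under all 14 alternatives. Pka-C3, a further catalytic subunit gene, averaged 285 ± 19.3 CPM in tumour and 207 ± 6.85 CPM in control libraries (log2 fold change 0.46 ± 0.11, edgeR adjusted p = 0.0175; 0.0548 without control library 3 and 0.0678 without tumour library 2). Crtc, a coactivator of the cAMP-responsive factor CREB, fell (44.6 ± 1.84 CPM in tumour and 58.6 ± 3.59 CPM in control libraries, log2 fold change -0.39 ± 0.11, edgeR adjusted p = 0.0277). Its call was lost without control library 1 (0.074), control library 3 (0.0914) or tumour library 2 (0.0842) and with library totals alone (0.524).

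G protein subunits gave 3 rises and 0 falls among 9 by edgeR, against 14.8% and 13.0% of all genes tested. At an unadjusted p under 0.05, by DESeq2 and by limma-voom, 0 were lower. Galphas, the stimulatory subunit that activates adenylyl cyclases, was at 102.6, 96.3 and 89.6 CPM in tumour and 68.9, 70.8 and 72.0 CPM in control libraries. The groups were clearly apart, with a log2 fold change of 0.45 ± 0.10 (edgeR adjusted p = 0.0152; 0.0712 without tumour library 1 and 0.0505 without control library 3). Ggamma1 averaged 309 ± 44.1 CPM in tumour and 213 ± 0.679 CPM in control libraries (edgeR adjusted p = 0.0192; 0.0687 without tumour library 1, 0.0517 without control library 1 and 0.0623 without control library 3). Galphaq, the subunit that activates phospholipase C, averaged 62.2 ± 4.65 CPM in tumour and 42.4 ± 0.951 CPM in control libraries (edgeR adjusted p = 0.00781) and shares 3050 bases of exon with CG45086 on the same strand, so its counts are uncertain. These 3 genes also rose with library totals alone and with RLE scaling. The number of the 9 that rose was 1 without tumour library 1 or control library 3 and 2 without control library 1. It was 4 without control library 2 and 0 against a fold of 1.5.

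Receptors that raise cAMP gave 1 fall and 0 rises among 9 tested (edgeR), against 13.0% and 14.8% of all genes tested. At an unadjusted p under 0.05, 1 was higher and 3 were lower; DESeq2 called 0 higher and 2 lower, and limma-voom 1 higher and 2 lower. Pdfr, the receptor gene for pigment-dispersing factor, was at 5.82, 4.83 and 5.84 CPM in tumour and 17.1, 12.8 and 14.8 CPM in control libraries. Its groups were far apart, with a log2 fold change of -1.44 ± 0.18 (edgeR adjusted p = 0.00119) that passed under all 14 alternatives. The most abundant receptor of the list, singled out after its values were seen, was that of the diuretic hormone DH31, Dh31-R, at 437 ± 21 CPM in tumour and 342 ± 28.5 CPM in control libraries (edgeR adjusted p = 0.0565). It did not pass in edgeR with TMM, and passed in edgeR with library totals alone (0.004) and in limma-voom with TMM (0.0499). The next most abundant, the DH44 receptor gene Dh44-R2, averaged 74.2 ± 6.85 CPM in tumour and 71.5 ± 3.04 CPM in control libraries. Its groups overlapped (log2 fold change 0.05, edgeR adjusted p = 0.756), and its exons overlap fdl and CG34234.

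Of 10 tested genes of cGMP synthesis and action, 1 fell and 0 rose by edgeR, against 13.0% and 14.8% of all genes tested. At an unadjusted p under 0.05, by DESeq2 and by limma-voom, 0 were higher. CG31183, a predicted receptor-type guanylyl cyclase gene, was at 1.96, 3.56 and 1.35 CPM in tumour and 8.99, 4.17 and 7.71 CPM in control libraries. The groups were apart, with tumour library 2 close to control library 2, and the log2 fold change was -1.60 ± 0.44 (edgeR adjusted p = 0.0305). That call was lost without tumour library 1 (0.095), tumour library 3 (0.0548), control library 1 (0.0993) or control library 3 (0.0908), and against a fold of 1.5 (0.119).

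**Figure D4:**
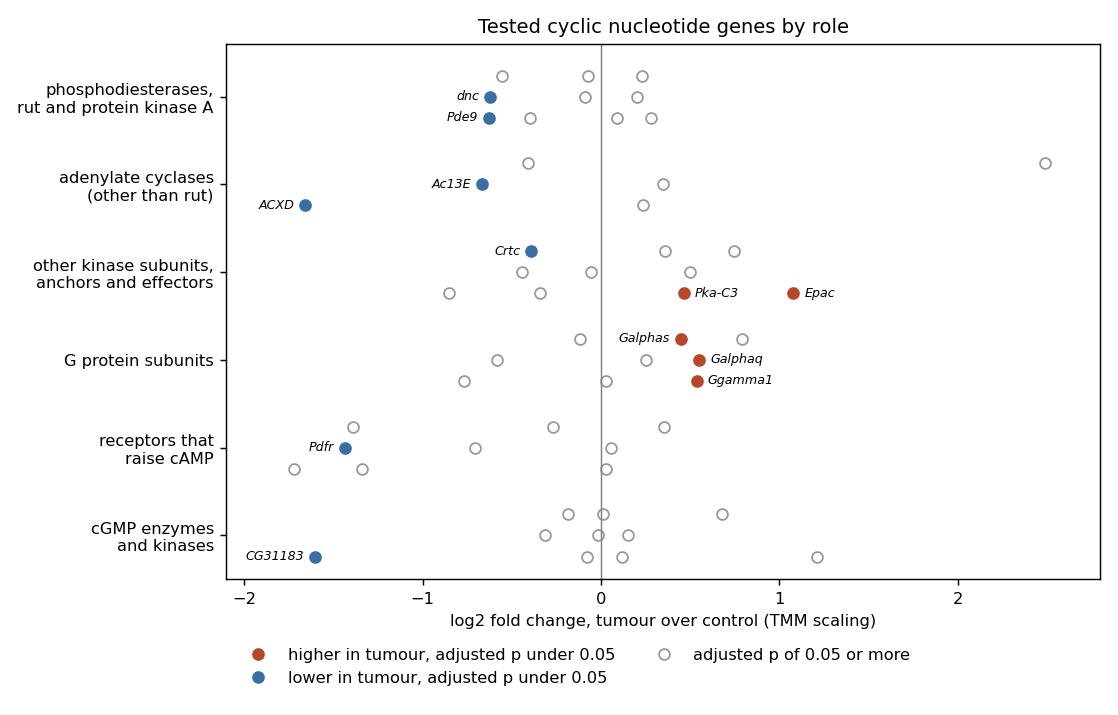
Log2 fold change of tumour over control, TMM scaling, for the 10 genes in the top row and for the tested genes of 5 further lists below it. Each circle is 1 gene, placed at 3 heights within its row only to keep circles apart; named and filled circles passed an adjusted p of 0.05. The called genes of the cyclase and receptor rows and dnc and Pde9 lie left of 0, and those of the G protein row lie right of 0.

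The genes whose profile over the 6 libraries was most like that of Pde9, by the root mean square difference of log2 CPM centred on each gene's mean, were Letm1 (0.0425), CG10194 (0.0437) and Nha2 (0.054). Letm1, a gene of mitochondrial ion exchange, averaged 138 ± 8.92 CPM in tumour and 203 ± 27.6 CPM in control libraries. Nha2, which encodes a sodium/proton antiporter, averaged 247 ± 24.3 CPM in tumour and 373 ± 43.4 CPM in control libraries. Those most like dnc were CG12355 (0.0681), Pkc98E (0.0699) and CG10208 (0.0747). Pkc98E, a protein kinase C gene, averaged 72.9 ± 7.03 CPM in tumour and 104.8 ± 17.8 CPM in control libraries. Genes that differ between the groups by the same amount come out alike by this measure, and it was not tested.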

How the data were processed

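The authors deposited 1 table of raw read counts per gene, unnormalised, 1 column for each library. TopHat, Cufflinks and HTSeq are listed, per the submitters' processing notes, without versions or roles. The build, the annotation and the strand setting behind the counts were not given in the sources used here. Symbols came from a table of FlyBase identifiers (17552 of 17611 matched), and positions and exon lengths from Ensembl BDGP6, which need not be the build counted on.

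R 4.3.3 with edgeR 4.0.16 was used: filterByExpr by group (minimum count 10, total 15), TMM, robust quasi-likelihood test of tumour over control, two-sided, at an adjusted p of 0.05 (Benjamini-Hochberg, 9789 genes). The biological coefficient of variation was 30.8%. The SE is the log2 fold change divided by the square root of F, and 95% intervals use the test's degrees of freedom. They are not adjusted for the number of genes. Scripts were tested on simulated data. Alternatives were RLE scaling, library totals alone, no filter, a replicate block, a minimum of 5 CPM in 3 libraries, omission of each library, DESeq2 1.42.0, limma-voom (limma 3.58.1) and a test against a fold of 1.5. Figures used matplotlib 3.10.9.

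The members and lists were chosen with earlier results of these data known. Named genes followed a rule: all members, per pathway list up to 4 called genes with the smallest adjusted p, the 2 most expressed genes per marker list, and the 3 genes most like each of the 2 members with the smallest adjusted p. Outside the rule, Sox100B, esg, osk, Dh31-R and Dh44-R2 were also named. Of 86 marker symbols 4 had no match. The limit that a count of 0 allows, 3 counts, equals 0.0608 to 0.0866 CPM. It covers counting error only, as reads are no independent molecules.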

Additional observations from a re-analysis of the deposited data

How the results depend on the processing

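With library totals alone, 3079 genes rose and 830 fell, 3 of the 10 members rose and 0 fell, and 10 pathway genes rose. Against a fold of 1.5, 336 genes rose and 480 fell, 0 members fell, and 1 pathway gene rose and 2 fell. In limma-voom 8 pathway genes rose. Without 1 library, between 865 and 1223 genes rose, between 0 and 3 members fell, and between 2 and 9 pathway genes rose and between 3 and 5 fell. The direction reversed for rut with library totals alone (0.20) and for Pka-C1 with library totals alone (0.22). Without 1 library, the log2 fold change lay between -0.23 and 0.040 for rut and between -0.25 and 0.075 for Pka-C1, with reversed signs without control replicate 1 for both and without tumour replicate 2 for Pka-C1 (0.0015), and none of these passed the test. The cause of these changes was not tested. The labels state no pairing of libraries by replicate number. Deviations of same-numbered libraries correlated at 0.08, -0.08 and 0.06, and not every library correlated best with its own number. With 3 libraries per group, such correlations cannot decide whether libraries were paired. With the replicate block 1345 genes rose and 1193 fell, and 2 members fell and 0 rose. Of the 10 pathway genes called, CG31183 did not pass with the block (adjusted p = 0.0664), and the other 9 did. No library was sequenced so shallowly that a member came near the limit that a count of 0 allows, and the lowest, Pde1c, had at least 239 counts in each library.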
